A study of Mus musculus with 4 samples.

Results

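Mature Ccr7-positive dendritic cells were 203 of 42617 barcodes kept from 50062 deposited ones, in droplet (10x 3′) transcriptomes of cells from MC38 liver metastatic tumours. MC38 is a mouse colon carcinoma line, and leukocytes had been captured with beads against CD45, the phosphatase encoded by Ptprc. A kept barcode had at least 300 detected genes and under 15% of its unique molecular identifiers (UMIs, 1 per captured transcript molecule) from mitochondrial genes. A mature dendritic cell was a kept barcode with at least 2 UMIs of Ccr7, at least 3 of Fscn1, Cacnb3 and Il4i1 summed, under 0.5% from the C1q genes of macrophages and at most 1 from Cd3d, Cd3e and Cd3g of T cells. The levels of those genes are therefore descriptions and were not tested.

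All 4 libraries came from C57BL/6J mice that the titles call WT, so the knockdown named in the labels lay in the tumour line and not in the dendritic cells. HFD_shYap came from high-fat-diet mice with the MC38 derivative labelled shYap, a Yap knockdown, and HFD_WT from high-fat-diet mice with the WT-MC38 line. LFD_shYap came, by its title, from low-fat-diet mice with shYap-MC38, and LFD_WT from low-fat-diet mice with WT-MC38. The treatment field of LFD_shYap gives the high-fat diet instead; diet was read from the title, which bears on every diet comparison below. Each combination of diet and line had 1 library, and nothing in the labels gives the number of mice pooled, the age of the mice or how many shYap clones were used.

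Mature dendritic cells are the state that conventional dendritic cells of either type enter after taking up antigen or sensing danger. Ccr7, a chemokine receptor, guides them along CCL19 and CCL21 to the T cell zones of lymph nodes, and Fscn1 bundles the actin of their dendrites. In this state uptake of antigen and synthesis of new MHC class II molecules slow down, while costimulatory ligands, chemokines, interleukin 12 and inhibitory ligands such as PD-L1 are made, under control of the NF-kB factors.

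Several properties of the libraries bear on the values. The deposited libraries held 106268471, 144936859, 127733073 and 125854921 UMIs in HFD_shYap, HFD_WT, LFD_shYap and LFD_WT. HFD_shYap mixed cells of both sexes: Xist, the RNA of the inactive X, was detected in 34.7% of its kept barcodes and in at most 0.0573% of those of each other library. Of its 61 mature dendritic cells, 15 had Xist, 30 had a Y-linked gene and 2 had both. Across libraries 267 barcode sequences occurred more than once, and 3 mature dendritic cells carried such a barcode. Yap1 was not lower in the library labelled HFD_shYap: Ptprc-negative tumour-like cells had 20.6 UMIs of it per 1000000 UMIs (CPM) there, with an exact 95% Poisson interval of 16.6 to 25.1, against 16.1 CPM (13.9 to 18.4) in HFD_WT. In LFD_shYap they had 17.7 CPM (15.5 to 20.03), against 19.8 CPM (17.6 to 22.2) in LFD_WT. A 3′ count from 101, 466, 518 and 553 such cells is a weak check of a knockdown, and the group names used below are the labels. All intervals given for single libraries are of counting error alone.

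The gate gave 61 mature dendritic cells in HFD_shYap, 74 in HFD_WT, 13 in LFD_shYap and 55 in LFD_WT. Their summed UMIs were 678540, 695270, 124328 and 379810 in the same order, so LFD_shYap values are the least precise. A cell held a median of 9760 UMIs in HFD_shYap, 8221 in HFD_WT, 7465 in LFD_shYap and 6729 in LFD_WT, with 757 to 60888 over all cells. In LFD_shYap 1 cell held 30608 of the 124328 UMIs. It had 5 UMIs of Ccr7, 4 of Fscn1 and 0 of Cacnb3, Il4i1, Ccl22, Ccl17, Ccl5 and Il12b. The deepest cell of HFD_shYap, with 54168 UMIs, had 2 of Ccr7, 7 of Fscn1 and 0 of those same genes. Both cells met the gate, and their UMIs are in the denominator of every CPM of their library. Some cells lay at the edge of the gate: 11 had just 2 Ccr7 UMIs and 10 had just 3 UMIs of the Fscn1, Cacnb3 and Il4i1 sum. Just outside it, 21 barcodes had 1 Ccr7 UMI, 26 had a sum of 2, and 38 and 27 were left out for C1q and Cd3 genes alone. The 38 held 245 Ccl22 UMIs and the 27 held 715.

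Markers of the mature state were present. All 8 markers of mature dendritic cells (Ccr7, Fscn1, Ccl22, Cacnb3, Il4i1, Cd83, Relb, Tmem150c) had UMIs in every library, with summed levels of 6994, 6538, 6636 and 8175 CPM in HFD_shYap, HFD_WT, LFD_shYap and LFD_WT. Ccr7, Fscn1, Cacnb3 and Il4i1 were fixed by the gate, while Ccl22, Cd83, Relb and Tmem150c took no part in it. The 4 genes outside the gate summed to 2284, 1989, 3113 and 3015 CPM in mature cells, against 551, 535, 399 and 515 CPM in type 1 and 479, 505, 782 and 597 CPM in type 2 dendritic cells of the same libraries. The 6 type 1 markers, among them Xcr1 and Clec9a, summed to 44.8 to 101 CPM in the mature cells, and the 6 type 2 markers, among them Cd209a and Mgl2, to 201 to 269 CPM. Plasmacytoid dendritic cell markers summed to 201 to 506 CPM, with Klk1 at 0 in all 4 libraries and Siglech at 0 in 3.

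Markers of other cells were also counted in the mature dendritic cells. The 8 macrophage markers summed to 559, 1125, 1054 and 1303 CPM in HFD_shYap, HFD_WT, LFD_shYap and LFD_WT, with Cd163 at 0 in HFD_WT and Adgre1 at 0 in LFD_shYap. C1qa, whose low level the gate required, stood at 3.20%, 5.70%, 4.88% and 6.80% of its level in macrophages of the same library, and Apoe, on which the gate placed no limit, at 4.17%, 7.57%, 5.93% and 9.25%. Neutrophil markers summed to 19.2, 371, 40.2 and 13.2 CPM, so HFD_WT stood apart, with 123 S100a8 UMIs of which 59.3% lay in 1 cell. The 5 monocyte markers summed to 576, 751, 265 and 179 CPM, with Ly6c2 at 0 in both low-fat libraries, Ccr2 at 0 in LFD_shYap and Chil3 at 0 in LFD_WT. Tumour-like epithelial markers summed to 113, 90.6, 48.3 and 18.4 CPM, with Krt18 at 0 in all 4 libraries. For both lists the high-fat libraries lay above the low-fat ones. Fibroblast markers summed to 193 to 410 CPM. T cell markers reached at most 39.5 CPM, and NK, B, mast, endothelial, hepatocyte and red cell markers at most 25.9 CPM. The part of these transcripts in the results below was not tested.

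The identifying genes were expressed in every library. Ccr7 (ENSMUSG00000037944, GRCm38 chr11:99144196-99155077) had 2782 CPM in HFD_shYap, 2678 in HFD_WT, 2220 in LFD_shYap and 2612 in LFD_WT. Its UMIs per cell had medians of 30, 22, 17 and 15 in that order, with up to 88 in 1 cell. Fscn1 (chr5:142960343-142973185) had 1285, 1294, 780 and 1793 CPM, lowest in LFD_shYap and highest in LFD_WT. The 1 cell of 30608 UMIs in LFD_shYap held 4 of the 97 Fscn1 UMIs of that library. Cacnb3, a calcium channel beta subunit (chr15:98630840-98644529), had 317, 245, 161 and 282 CPM. Il4i1, a secreted amino acid oxidase that dampens T cells, had 326, 332, 362 and 474 CPM. After each cell was thinned to 5000 UMIs, which left out 39 shallower cells, Ccr7 was detected in 161 of 164 cells, Fscn1 in 134, Il4i1 in 111 and Cacnb3 in 108. The gate selected on these genes, so their detection in mature cells is a description and no check of identity. Among macrophages thinned alike, with median depths of 8199 to 13218 UMIs before thinning, Ccr7 was detected in 0.781% to 1.24% by library.

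**Figure D1:**
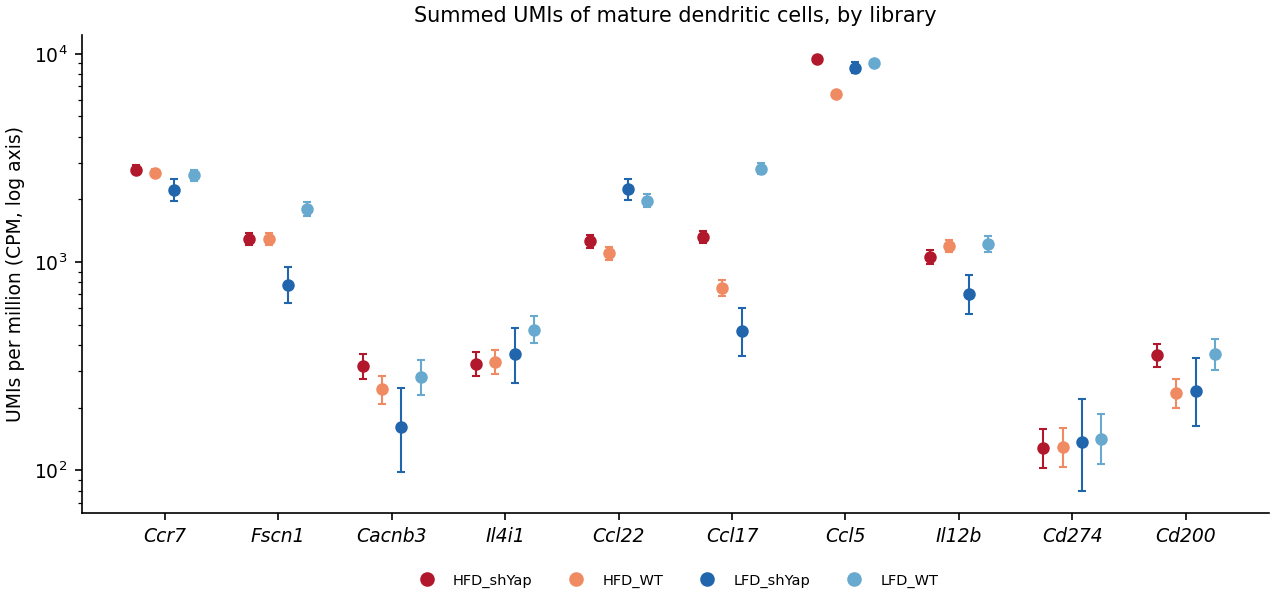
Levels of 10 genes in mature dendritic cells in UMIs per 1000000 (CPM, log axis), with 1 point per library and bars for exact 95% Poisson intervals. Ccr7 lies between 2220 and 2782 CPM in the 4 libraries, while Ccl17 runs from 467 CPM in LFD_shYap to 2804 CPM in LFD_WT.

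Mature dendritic cells were scarcest in LFD_shYap. They made up 0.774% of kept barcodes in HFD_shYap (exact Clopper-Pearson 95% interval 0.592 to 0.993), 0.606% in HFD_WT (0.476 to 0.760), 0.131% in LFD_shYap (0.0696 to 0.223) and 0.438% in LFD_WT (0.330 to 0.569). The interval of LFD_shYap lay below those of the other libraries, while the intervals of HFD_shYap and HFD_WT overlapped. The share in HFD_shYap was 5.92 times that in LFD_shYap (3.22 to 11.7), and the share in HFD_WT was 1.38 times that in LFD_WT (0.963 to 1.999). Between tumour lines, HFD_shYap had 1.28 times the share of HFD_WT (0.895 to 1.82), and LFD_shYap had 0.299 times that of LFD_WT (0.150 to 0.554). These shares were not tested across libraries, and bead enrichment and tissue dissociation can set them.

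Mature cells were then counted within the dendritic cells. Type 1 dendritic cells (at least 2 Xcr1 and Clec9a UMIs summed) and type 2 dendritic cells (at least 2 Cd209a UMIs), each at most 1 UMI of the other type's genes and within the C1q and Cd3 limits, numbered 540 and 225. Both were also lowest in LFD_shYap: type 1 cells were 1.94%, 1.31%, 0.955% and 1.05% of kept barcodes in HFD_shYap, HFD_WT, LFD_shYap and LFD_WT, and type 2 cells 0.558%, 0.589%, 0.342% and 0.597%. The share in HFD_shYap was 2.03 times that in LFD_shYap (1.56 to 2.65) for type 1 and 1.63 times (1.02 to 2.63) for type 2 cells. Mature cells were 23.6% (18.6 to 29.3) of the 3 dendritic groups in HFD_shYap, 24.2% (19.5 to 29.4) in HFD_WT, 9.15% (4.97 to 15.1) in LFD_shYap and 21.0% (16.2 to 26.4) in LFD_WT. Barcodes were also thinned to 3000 UMIs with shallower ones left out, which kept 6491, 9758, 8394 and 9346 barcodes. The shares were then 0.755%, 0.553%, 0.0953% and 0.503%. LFD_shYap, with 8 mature cells left, was again lowest.

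**Figure D2:**
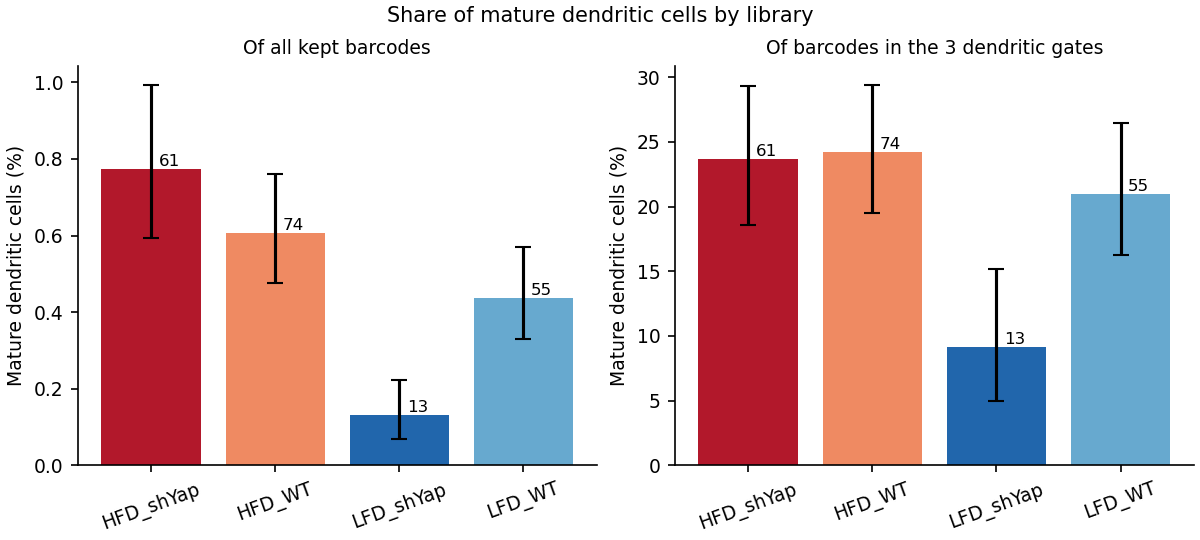
Share of mature dendritic cells by library, of all kept barcodes (left) and of the 3 dendritic groups (right), in percent with exact 95% Clopper-Pearson intervals. The numbers of cells, 61, 74, 13 and 55, stand above the bars, and LFD_shYap is lowest in both panels.

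Mature cells were then compared with type 2 and type 1 dendritic cells of the same libraries, on UMIs summed per library and cell group, with edgeR's quasi-likelihood test and library as a block. Against type 2 cells, 1161 genes (18.3% of 6342 tested) were higher in mature cells and 1295 (20.4%) lower at an adjusted p under 0.05, with a median log2 change over all genes of -0.05. Against type 1 cells, 1492 genes (23.5%) were higher and 1446 (22.8%) lower, with a median of -0.01. Cells on each side were picked by marker genes, so these tests describe cells so picked. With library as a block, their p-values measure how the differences between cell groups varied across the 4 libraries.

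The genes of migration and cell shape were higher as a group. Of 9 tested members, 8 rose against type 2 and 8 against type 1 cells, with median log2 changes of 1.90 and 2.01 and none lower. Among all tested genes 18.3% rose against type 2 and 23.5% against type 1 cells. Samsn1, an adaptor first known from B cells, averaged 1168 ± 116 CPM in mature cells, 34.0 ± 7.68 in type 1 and 242 ± 45.01 in type 2 cells (SD, n = 4 libraries). Its log2 changes were 5.21 (SE 0.18, edgeR adjusted p = 5.18e-13) against type 1 and 2.36 (SE 0.16, adjusted p = 2.62e-09) against type 2. Tbc1d4, a Rab GTPase activator, averaged 1308 ± 194 CPM in mature cells against 167 ± 35.1 in type 1 and 160 ± 79.97 in type 2 cells. Marcks, which links membrane and actin, averaged 1315 ± 344 CPM in mature cells against 418 ± 70.8 and 306 ± 28.1 CPM in type 1 and type 2 cells.

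Costimulatory ligands and receptors rose in 7 of 9 tested members against type 2 and 8 of 9 against type 1 cells, with medians of 2.16 and 2.63. The shares that rose over all tested genes were 18.3% and 23.5%. Cd40, the receptor for T cell help, had 128, 160, 129 and 250 CPM in mature cells of HFD_shYap, HFD_WT, LFD_shYap and LFD_WT. That mean of 167 ± 57.5 CPM stood against 18.6 ± 6.83 in type 1 and 39.2 ± 8.97 in type 2 cells, without overlap between the groups. Its log2 changes were 3.27 (SE 0.25, edgeR adjusted p = 7.11e-09) against type 1 and 2.16 (SE 0.26, adjusted p = 4.09e-06) against type 2. Cd80, a ligand of CD28, rose by 2.27 against type 1 and by 0.74 against type 2 (SE 0.17, edgeR adjusted p = 0.0017). Cd86, the other CD28 ligand, did not pass the test: it averaged 195 ± 50.5 CPM in mature cells, 172 ± 13.004 in type 1 and 179 ± 24.9 in type 2 cells, with log2 changes of 0.30 and 0.24 (edgeR adjusted p = 0.154 and 0.313). Cd70, the CD27 ligand, had 41, 44, 5 and 24 UMIs in the mature cells and 0 in type 1 cells of all 4 libraries, a log2 difference of at least 5.14 with 3 counts per library as floor. Tnfrsf4, the receptor OX40, had 161 ± 36.02 CPM against 1.05 ± 0.857 in type 1 and 3.76 ± 0.543 in type 2 cells.

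Regulatory molecules, a list of inhibitory ligands, inhibitors of cytokine signalling and other genes such as Aldh1a2, also mostly rose. Against type 2 cells 6 of 9 tested members rose and 1, Socs3, fell (median 1.77), and against type 1 cells all 9 rose (median 2.44). Over all tested genes 18.3% rose and 20.4% fell against type 2, and 23.5% rose against type 1 cells. Cd274, encoding PD-L1, had 128, 129, 137 and 142 CPM in HFD_shYap, HFD_WT, LFD_shYap and LFD_WT. The 4 libraries were close to each other. It averaged 134 ± 6.54 CPM in mature cells, 25.2 ± 7.22 in type 1 and 41.3 ± 18.2 in type 2 cells, with log2 changes of 2.44 (SE 0.25, edgeR adjusted p = 2.92e-07) and 1.77 (SE 0.27, adjusted p = 5.03e-05). Pdcd1lg2, encoding PD-L2, had 82.5, 112, 56.3 and 50.03 CPM, with log2 changes of 3.85 and 2.71 against type 1 and type 2 cells. Cd200, a ligand that inhibits myeloid cells, had 357, 234, 241 and 361 CPM in mature cells, against means of 7.21 and 2.001 CPM in type 1 and type 2 cells. Socs2, a feedback inhibitor of cytokine signalling, averaged 255 ± 46.6 CPM against 0.909 ± 0.259 in type 1 and 10.1 ± 10.8 CPM in type 2 cells. Aldh1a2, which makes retinoic acid, varied: 41.3, 53.2, 169 and 137 CPM. In cells thinned to 5000 UMIs, Cd274 and Pdcd1lg2 were found together in 31 of 164, Cd274 without Pdcd1lg2 in 45, Pdcd1lg2 without Cd274 in 23 and neither in 65.

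Chemokines and cytokines divided. Against type 2 cells 7 of 14 tested members rose (Ccl22, Il12b, Il15ra, Ccl5, Il6, Il15, Ccl17) and 3 fell (Il1b, Ccl4, Ccl3), with a median of 0.46. Against type 1 cells 9 rose and 1, Ccl4, fell (median 1.93). Of all tested genes 18.3% rose and 20.4% fell against type 2, and 23.5% and 22.8% against type 1 cells. Ccl22 (chr8:94745590-94751699), which draws regulatory T cells through CCR4, had 1257 CPM in HFD_shYap, 1103 in HFD_WT, 2236 in LFD_shYap and 1972 in LFD_WT. Both low-fat values exceeded both high-fat ones, but 38.1% of the LFD_shYap UMIs lay in 1 cell. Its mean of 1642 ± 548 CPM stood against 44.2 ± 15.8 in type 1 and 63.6 ± 23.1 in type 2 cells, for log2 changes of 5.16 (SE 0.27, edgeR adjusted p = 7.68e-11) and 4.65 (SE 0.29, adjusted p = 1.03e-09).

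Ccl17, the other CCR4 ligand, had 1319 CPM in HFD_shYap, 752 in HFD_WT, 467 in LFD_shYap and 2804 in LFD_WT. LFD_WT was highest and LFD_shYap lowest, and 48.3% of the LFD_shYap UMIs lay in 1 cell. Type 2 cells also expressed it (725 ± 268 CPM), so the log2 change against them was 0.71 (SE 0.25, edgeR adjusted p = 0.0313), against 2.05 (SE 0.25, adjusted p = 2.96e-06) over type 1 cells. In thinned cells both CCR4 ligands were found in 108 of 164, Ccl22 without Ccl17 in 31, Ccl17 without Ccl22 in 2 and neither in 23.

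Ccl5, a chemokine that attracts T cells, had 9473, 6380, 8566 and 9078 CPM in HFD_shYap, HFD_WT, LFD_shYap and LFD_WT. In LFD_shYap 61.1% of these UMIs lay in 1 cell. The mean in mature cells was 8374 ± 1380 CPM, against 26.0 ± 6.09 in type 1 and 237 ± 250 in type 2 cells. After thinning to 5000 UMIs, 87.04%, 85.2%, 60% and 92.3% of mature dendritic cells had a UMI of it, against 21.99%, 26.8%, 11.9% and 10.4% of macrophages. Macrophages held 195, 237, 95.04 and 88.8 CPM of Ccl5, and what part of that was free RNA was not tested.

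Il12b, the shared subunit of interleukins 12 and 23, had 1058, 1198, 700 and 1224 CPM in HFD_shYap, HFD_WT, LFD_shYap and LFD_WT. Type 1 cells had 59.6 ± 42.2 and type 2 cells 8.08 ± 10.5 CPM, and the log2 changes were 4.29 (SE 0.32, edgeR adjusted p = 7.57e-09) and 6.94 (SE 0.46, adjusted p = 2.62e-09). Among thinned mature cells, 74 of 164 had both Il12b and Ccl17, 32 had Il12b without Ccl17, 36 had Ccl17 without Il12b and 22 had neither. Il1b, the inflammatory cytokine, averaged 666 ± 247 CPM in mature cells, 468 ± 81.6 in type 1 and 2879 ± 703 in type 2 cells, so that it rose by 0.55 against type 1 and fell by 2.07 against type 2.

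Genes of the NF-kB pathway rose in 7 of 13 tested members against type 2 cells, with 1 lower (Tnfaip3, an inhibitor of the pathway) and a median of 0.57. Against type 1 cells all 13 rose, with a median of 2.17. Calls in either direction took in 38.7% of all tested genes against type 2 and 46.3% against type 1 cells. Relb, the partner in the noncanonical dimer, had 386, 305, 249 and 329 CPM in mature cells of HFD_shYap, HFD_WT, LFD_shYap and LFD_WT. Type 1 cells averaged 28.3 ± 5.03 and type 2 cells 58.2 ± 8.28 CPM, for log2 changes of 3.57 (SE 0.18, edgeR adjusted p = 3.25e-11) and 2.57 (SE 0.19, adjusted p = 8.10e-09). Nfkb2, which encodes the p100 precursor of Relb's partner, had 203, 201, 137 and 200 CPM and changes of 2.35 and 1.76. Birc2, a ubiquitin ligase that restrains the noncanonical pathway, averaged 326 ± 44.8 CPM against 20.2 ± 5.62 and 58.2 ± 24.4 CPM in type 1 and type 2 cells.

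Promoters of 3 genes are printed here to show windows with and without NF-kB matches. Nfkb2 and Ccl22 rose against both types, while Cxcl10 rose by 1.81 against type 1 (edgeR adjusted p = 0.0043) and did not pass the test against type 2 cells (-0.94, adjusted p = 0.113). The windows, from RefSeq (GRCm38.p6), run from 250 bases before to 50 after the start and are written 5′ to 3′ on the gene's strand. Capitals mark matches to the NF-kB consensus GGGRNNYYCC on either strand, and overlapping matches merge into 1 run. In it R stands for A or G, Y for C or T and N for any base. Nfkb2 has 3 windows, and the first of those with a match is printed. Cxcl10 and Ccl22 have 1 window each. The printed windows of Nfkb2 (chr19:46304487-46304786, plus strand) and Cxcl10 (chr5:92348840-92349139, minus strand) hold 3 matches each, and that of Ccl22 (chr8:94745434-94745733, plus strand) holds none.
Nfkb2: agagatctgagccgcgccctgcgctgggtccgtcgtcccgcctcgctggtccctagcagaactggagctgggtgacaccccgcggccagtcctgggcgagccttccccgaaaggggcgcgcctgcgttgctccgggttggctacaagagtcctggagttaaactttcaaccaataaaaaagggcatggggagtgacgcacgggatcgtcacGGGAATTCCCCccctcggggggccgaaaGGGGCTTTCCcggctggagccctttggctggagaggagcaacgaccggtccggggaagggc
Ccl22: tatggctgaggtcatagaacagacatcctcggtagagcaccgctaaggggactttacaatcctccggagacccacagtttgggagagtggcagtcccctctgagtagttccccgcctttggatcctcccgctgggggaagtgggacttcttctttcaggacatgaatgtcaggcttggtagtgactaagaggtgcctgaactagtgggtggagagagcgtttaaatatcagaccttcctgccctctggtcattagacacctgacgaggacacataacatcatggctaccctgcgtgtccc
Cxcl10: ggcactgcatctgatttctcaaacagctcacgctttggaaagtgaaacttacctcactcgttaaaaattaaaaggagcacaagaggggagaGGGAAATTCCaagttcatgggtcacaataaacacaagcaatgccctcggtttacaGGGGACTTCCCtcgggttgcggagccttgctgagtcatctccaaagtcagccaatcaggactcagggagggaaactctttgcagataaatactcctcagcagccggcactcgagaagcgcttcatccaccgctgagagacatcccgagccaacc

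The Nfkb2 matches lie 39 to 11 bases before the start and the Cxcl10 matches 159 to 103 bases before it. A match was present in 5 of 12 NF-kB pathway genes with a window (41.7%), 3 of 10 regulatory molecules (30%), 2 of 6 costimulatory genes (33.3%), 2 of 11 chemokine and cytokine genes (18.2%), 1 of 8 MHC class II genes (12.5%) and 0 of 9 migration genes. Over all genes with a window the share was 9.55% (2581 of 27018). A match describes letters in the window and not binding.

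Genes of MHC class II presentation fell as a group. Of 12 tested members 11 fell against type 2 cells (median -1.95) and 11 fell against type 1 cells (median -1.75). Among all tested genes 20.4% fell against type 2 and 22.8% against type 1 cells. The exceptions were March1, a ubiquitin ligase that was not called against type 2, and Ctss, the protease cathepsin S, which rose by 0.33 against type 1 (SE 0.12, edgeR adjusted p = 0.0373). H2-Ab1, a class II beta chain, averaged 1597 ± 78.1 CPM in mature cells, 8137 ± 203 in type 1 and 9892 ± 1247 in type 2 cells, with no overlap between groups. It fell by 2.28 on the log2 scale against type 1 (SE 0.09, edgeR adjusted p = 1.56e-12) and by 2.58 against type 2 (SE 0.09, adjusted p = 2.81e-12). H2-DMb1, a chain of the peptide-loading molecule, averaged 46.3 ± 18.6 CPM against 644 ± 53.1 and 535 ± 85.1 CPM, and Cd74, the invariant chain, 4959 ± 691 CPM against 13793 ± 736 and 18168 ± 2291 CPM, in type 1 and type 2 cells. Ciita, the transcriptional activator of the class, averaged 13.6 ± 4.87 CPM in mature, 67.02 ± 5.54 in type 1 and 51.7 ± 12.5 in type 2 cells. Transcripts of the class were still found: 160 of 164 thinned mature cells had Cd74 and 109 had H2-Ab1.

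MHC class I presentation went the other way, with 12 of 12 members higher against type 2 (median 0.81) and 8 of 12 higher against type 1 cells (median 0.83). The shares of all tested genes that were higher were 18.3% and 23.5%. Psmb9, an immunoproteasome subunit, was the 1 member lower against type 1. Psme2, of the proteasome activator, averaged 1179 ± 154 CPM in mature cells, 314 ± 37.2 in type 1 and 239 ± 70.01 in type 2 cells. H2-K1, a class I heavy chain, averaged 2283 ± 237 CPM against 1030 ± 98.97 and 1355 ± 185 CPM, for log2 changes of 1.22 (SE 0.12, edgeR adjusted p = 1.19e-07) and 0.81 (SE 0.12, adjusted p = 2.47e-05) against type 1 and type 2 cells.

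**Figure D3:**
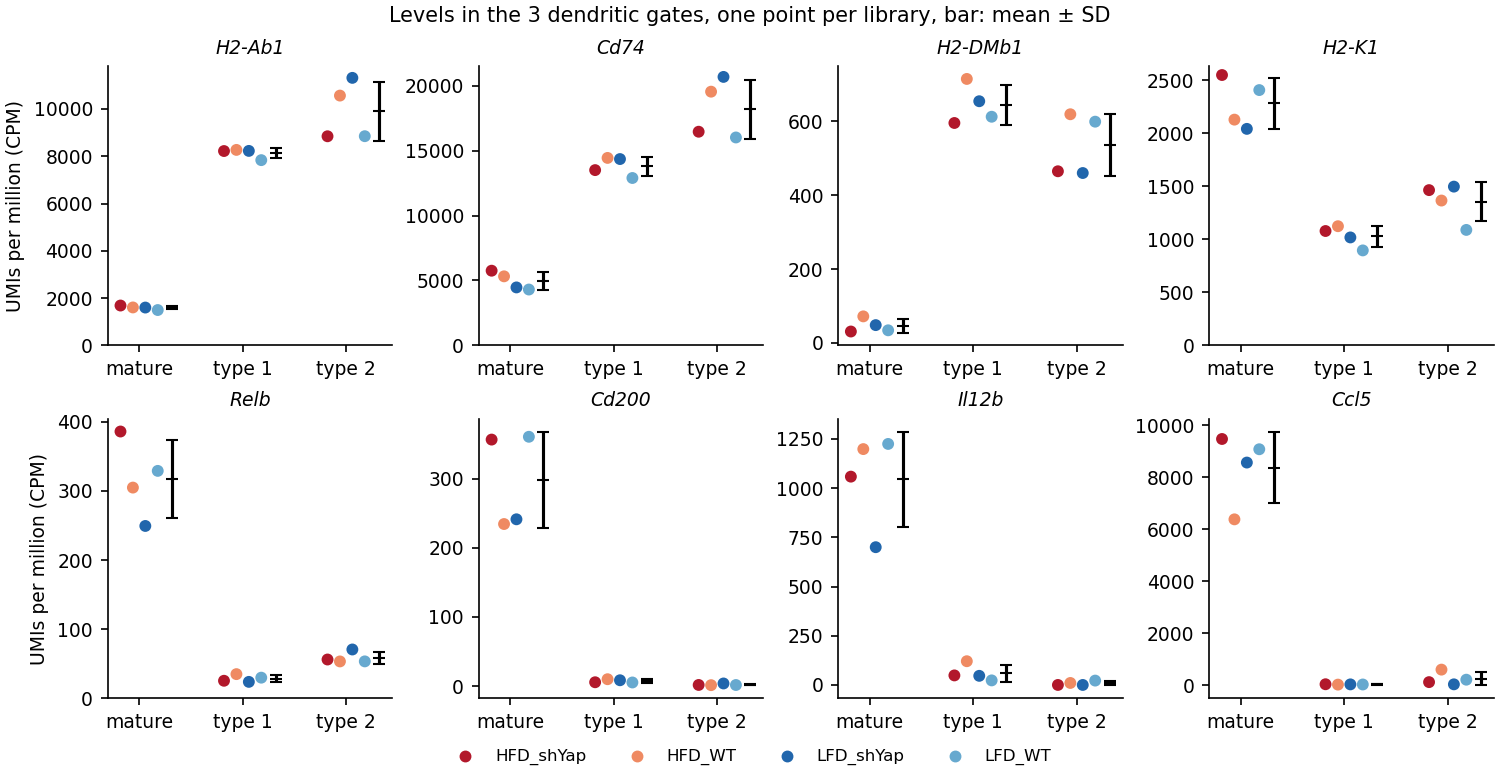
Levels of 8 genes in CPM in mature, type 1 and type 2 dendritic cells, with 1 point per library and a bar for the mean ± SD over 4 libraries. The mature cells lie below both other groups for H2-Ab1, Cd74 and H2-DMb1, and above both for H2-K1, Relb, Cd200, Il12b and Ccl5.

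Identity genes of type 1 and type 2 cells differed among themselves. Irf8, the lineage factor of type 1 cells, had 728, 850, 362 and 771 CPM in mature cells of HFD_shYap, HFD_WT, LFD_shYap and LFD_WT. It was above type 2 cells by 3.19 (SE 0.19, edgeR adjusted p = 6.83e-10) and did not pass the test against type 1 cells (-0.35, SE 0.15, adjusted p = 0.0767). Batf3, its partner factor, was above both, by 0.51 (edgeR adjusted p = 0.0112) over type 1 and 2.87 over type 2. Other type 1 genes were low: Naaa, a lysosomal amidase, fell by 5.79 against type 1 cells (SE 0.21, edgeR adjusted p = 8.11e-13), and 8 of 10 tested members of that list fell against type 1 cells (median -4.20). Of the type 2 list, 8 of 10 fell against type 2 cells (median -2.04), among them Mgl2, a lectin, with 46.8 ± 17.6 CPM against 778 ± 137 CPM. Over all tested genes 22.8% fell against type 1 and 20.4% against type 2 cells.

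In the remaining lists the calls stood beside 38.7% of all tested genes called against type 2 and 46.3% against type 1 cells. Phagocytic and pattern receptors fell in 7 of 10 tested members against type 2 cells (median -1.65), with Cd36 higher, while against type 1 cells 3 rose and 1 fell (median -0.09). Cell cycle genes fell in 10 of 10 against both types, with medians of -2.00 against type 2 and -2.41 against type 1. Mki67, a proliferation marker, averaged 24.7 ± 8.40 CPM in mature cells, 84.99 ± 23.1 in type 1 and 54.5 ± 26.5 in type 2 cells. Survival genes rose in 5 of 10 and fell in 2 against type 2 (median 0.34), and rose in 7 of 10 against type 1 (median 0.93). Bcl2l14, a BCL2-family gene, had 469, 478, 571 and 361 CPM in mature cells, against means of 69.6 ± 21.5 in type 1 and 0.388 ± 0.777 CPM in type 2 cells. Dissociation stress genes fell in 4 of 10 against type 2 (median -0.28), and rose in 2 and fell in 2 against type 1 (median -0.15).

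Interferon response genes moved in both directions, beside 38.7% of all tested genes called against type 2 and 46.3% against type 1 cells. Type I interferon response genes rose in 2 and fell in 1 of 12 against type 2 cells, and rose in 3 and fell in 4 against type 1 cells, with medians of 0.01 and 0.22. Interferon-gamma response genes rose in 3 and fell in 2 of 11 against type 2, and rose in 5 and fell in 2 against type 1, with medians of 0.21 and 0.45. Irf1, a factor downstream of interferon gamma, averaged 188 ± 30.6 CPM in mature cells, 36.04 ± 9.06 in type 1 and 55.9 ± 12.4 in type 2 cells.

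**Figure D4:**
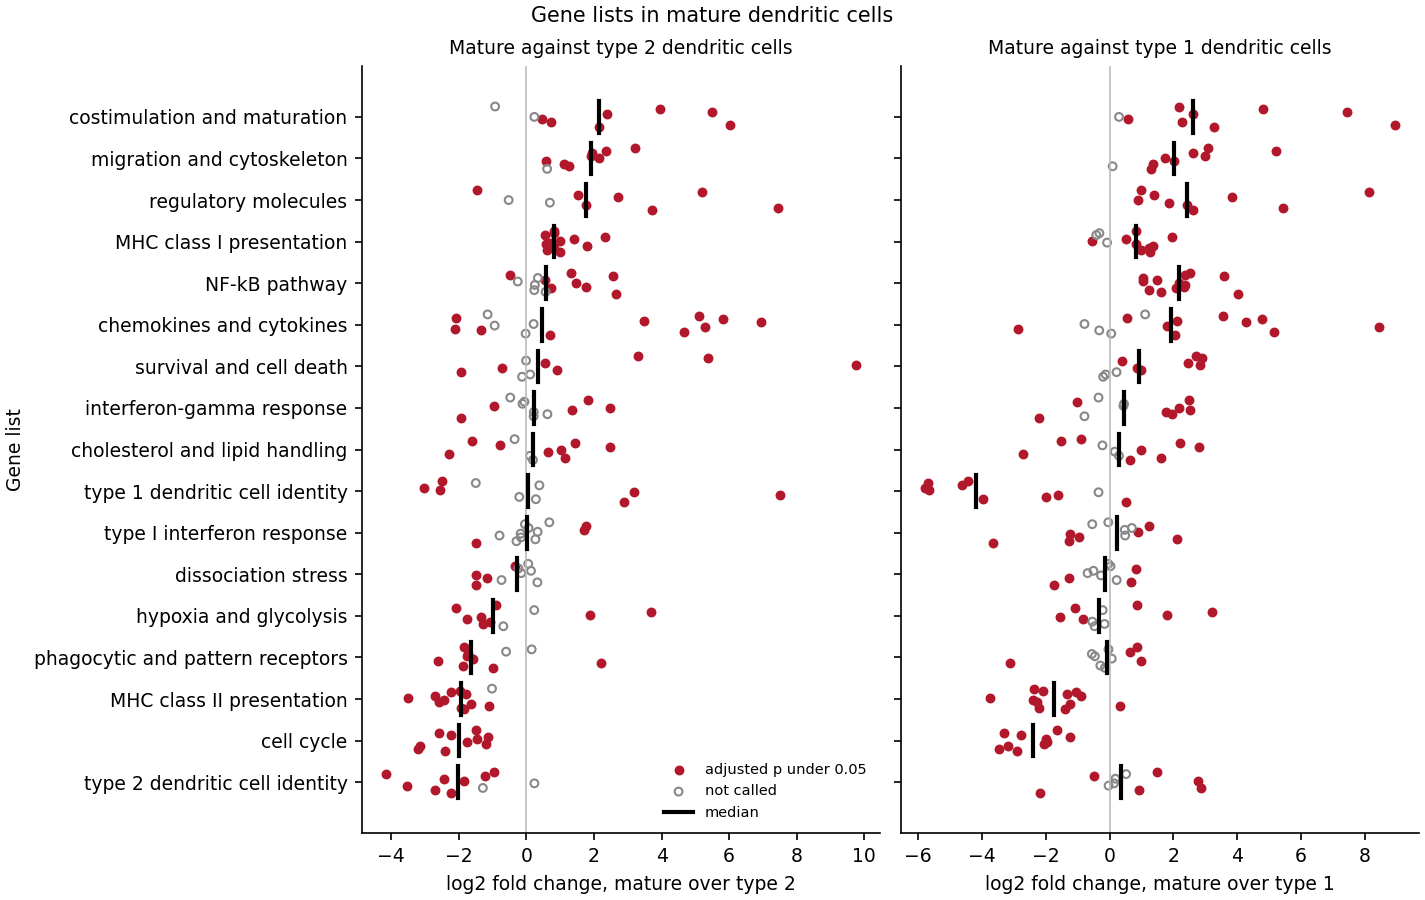
Log2 fold changes of the genes of 17 lists in mature over type 2 (left) and mature over type 1 (right) dendritic cells, with each gene as a point, filled where the edgeR adjusted p was under 0.05, and the median as a black line. Median changes run from -2.04 to 2.16 on the left, where cell cycle and MHC class II genes lie below 0 and costimulation and migration genes above it.

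The genes that led each comparison by p were partly the same. Fabp5, a fatty acid carrier, had 1241, 1345, 660 and 1964 CPM in mature cells of HFD_shYap, HFD_WT, LFD_shYap and LFD_WT, against means of 23.6 ± 6.84 in type 1 and 56.6 ± 23.6 in type 2 cells. It rose by 5.86 against type 1 (SE 0.20, edgeR adjusted p = 5.18e-13) and by 4.52 against type 2 (SE 0.20, adjusted p = 3.65e-11). Glipr2 averaged 468 ± 106 CPM in mature cells against 13.5 ± 4.50 and 41.2 ± 15.6 CPM in type 1 and type 2 cells. Against type 2 cells Bcl2l14, Serpinb6b (5.36), Ncoa7 (3.92) and Txndc17 (2.63) also led the rise, and against type 1 cells Samsn1, Tmem123 (4.78), Nudt17 (8.78) and Mmp25 (5.04). Among the genes that fell, H2-Ab1, Plbd1 and Ckb led against both types. Ckb, brain-type creatine kinase, had log2 changes of -4.31 against type 1 and -3.16 against type 2, and Plbd1 had -4.08 and -3.11. Alox5ap, needed for leukotriene synthesis, averaged 87.9 ± 21.6 CPM in mature cells against 617 ± 39.3 CPM in type 2 cells, and Psap, the saposin precursor, 412 ± 82.7 CPM against 2855 ± 119 CPM in type 1 cells.

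Diet was tested over both tumour lines with edgeR, in a model of diet and line with 1 residual degree of freedom. With 1 library per combination, any interaction of diet and line counts as error in this model. Of 4956 genes 5 were higher on the high-fat diet (0.101%) and 0 lower, with a median log2 change over all genes of 0.01; 127 had an unadjusted p under 0.05, and DESeq2 called 2. The 5 were Cxcl9, Cxcl10, Serpinb1a, Ifitm1 and Timd4. In each, both high-fat libraries lay above both low-fat ones, as they did for the summed monocyte and tumour-like markers given above, whose part was not tested. Cxcl9, Cxcl10, Serpinb1a and Timd4 passed the count filter only through the high-fat libraries. No p or SE is therefore given for them, and their calls are no test of diet. Ifitm1 passed it in all 4. The low-fat side rested on the 13 cells of LFD_shYap and the 55 of LFD_WT. Leaving out LFD_WT, LFD_shYap, HFD_WT or HFD_shYap gave 98, 54, 10 and 11 calls in a model of diet alone, with the remaining library of a diet assumed to vary like the others. No call was left when the model of all 4 libraries held diet alone, under a looser gate, or when the HFD_shYap cells with Xist were left out. Without possible doublets, 3 cells of HFD_WT and 1 of LFD_WT, only Serpinb1a of the 5 was called. DESeq2 called Cxcl10 and Ifitm1 of the 5, upper-quartile scaling left Cxcl9 and Serpinb1a, Serpinb1a was not called without HFD_WT, and Ifitm1 was not called with LFD_shYap read as high-fat.

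Cxcl9 (chr5:92321347-92328079), an interferon-gamma-induced chemokine that attracts T cells through CXCR3, had 191 UMIs in HFD_shYap, 150 in HFD_WT, 0 in LFD_shYap and 9 in LFD_WT, or 281, 216, 0 and 23.7 CPM. It was found in 16 of 61, 22 of 74, 0 of 13 and 3 of 55 cells. Its fitted log2 change was 3.80, and 42.4% of the HFD_shYap UMIs lay in 1 cell. Set against a floor of 3 counts in LFD_shYap, HFD_shYap was at least 11.7-fold higher. In macrophages of the same libraries Cxcl9 had 210, 320, 40.2 and 42.0 CPM, so the order of the diets was shared with them. The mature cells held 134%, 67.4%, 0% and 56.4% of the macrophage level. Type 2 cells had 124, 302, 51.9 and 45.8 CPM, with the diets in the same order. Type 1 cells had 204, 255, 172 and 272 CPM, without that order.

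Cxcl10 (chr5:92346638-92348889), another CXCR3 ligand, lies beside Cxcl9 on the chromosome. It had 163, 209, 0 and 25 UMIs in HFD_shYap, HFD_WT, LFD_shYap and LFD_WT, or 240, 301, 0 and 65.8 CPM. A single cell held 70.6% of the UMIs in HFD_shYap, and another 46.9% in HFD_WT. The fitted log2 change was 2.80. Set against a floor of 3 counts in LFD_shYap, HFD_shYap was at least 9.96-fold higher. In macrophages Cxcl10 had 75.4, 134, 78.7 and 138 CPM, an order that followed the tumour line and not the diet.

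Serpinb1a, an inhibitor of neutrophil serine proteases, had 76.6 CPM in HFD_shYap, 302 in HFD_WT, 8.04 in LFD_shYap and 31.6 in LFD_WT, for a fitted log2 change of 3.22. It was near 0 in macrophages, at 1.08 to 1.63 CPM. Ifitm1, a membrane protein of the interferon response, had 715, 998, 72.4 and 329 CPM, for a change of 2.15 (SE 0.35, edgeR adjusted p = 0.0157). The diets stood in the same order in type 1 cells, with 227, 112, 29.6 and 64.4 CPM of Ifitm1, and in macrophages, with 45.2, 94.5, 30.7 and 34.6 CPM. Type 2 cells had 2609, 2627, 3449 and 2530 CPM, without that order. Timd4, a receptor for phosphatidylserine on dying cells (chr11:46810800-46844332), had 51 and 42 UMIs in HFD_shYap and HFD_WT and 0 in both LFD_shYap and LFD_WT. It was found in 11 of 61 and 17 of 74 high-fat cells against 0 of 13 and 0 of 55 low-fat cells. It passed the count filter through the high-fat libraries alone, so no p is given. Set against a floor of 3 counts per library, HFD_shYap was at least 3.11-fold higher than LFD_shYap and HFD_WT at least 7.65-fold higher than LFD_WT. In macrophages Timd4 had 1.40 to 2.09 CPM and in type 1 cells 27.3, 17.2, 9.12 and 23.2 CPM.

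**Figure D5:**
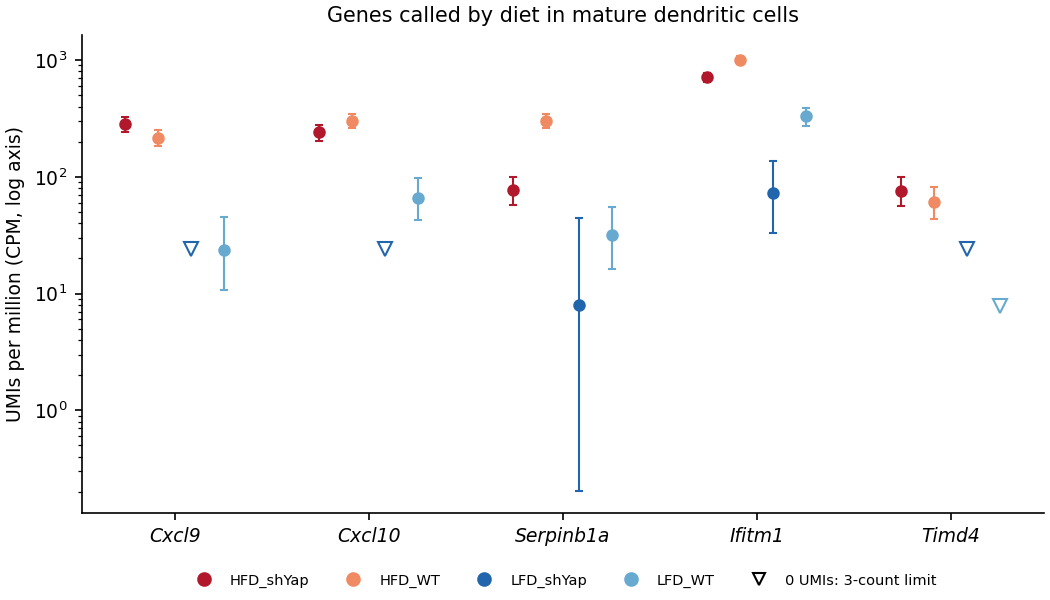
Levels of the 5 genes called by diet in mature dendritic cells, in CPM (log axis) with exact 95% Poisson intervals; open triangles mark libraries with 0 UMIs, at their 3-count limit. HFD_shYap and HFD_WT lie above LFD_shYap and LFD_WT for each gene, with Cxcl9 at 281 and 216 CPM in the high-fat libraries and at 0 and 23.7 CPM in the low-fat ones.

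Most functions of the mature state were not called by diet. Of 12 tested chemokine and cytokine genes 2 rose, Cxcl9 and Cxcl10, with a list median of -0.06, and of 9 interferon-gamma response genes 1 rose, Cxcl9, with a median of 0.25. Both genes passed the count filter only through the high-fat libraries. In the other lists 0 genes were called. MHC class II genes were higher on the high-fat diet in 10 of 10 without a call (median 0.24), and hypoxia and glycolysis genes had a median of 0.82 without a call. Ccl4, an inflammatory chemokine, had 26.5, 18.7, 72.4 and 153 CPM in HFD_shYap, HFD_WT, LFD_shYap and LFD_WT and came nearest on the low side (-2.38, SE 0.46, edgeR adjusted p = 0.0611). Its diets stood in the same order in macrophages (404, 304, 806 and 893 CPM). They did so also in type 1 (363, 251, 599 and 669 CPM) and type 2 cells (239, 115, 549 and 278 CPM). Aldh1a2 had a log2 change of -1.70 (SE 0.38, edgeR adjusted p = 0.159), with its 2 low-fat values above its 2 high-fat ones. Apoe had 956, 2061, 2775 and 3520 CPM (-1.19, SE 0.30, edgeR adjusted p = 0.369), and its share of the macrophage level, given above, was also lowest in HFD_shYap. Macrophages had 22947, 27233, 46825 and 38046 CPM of Apoe, with the diets in the same order. That order also held in type 1 (889, 1631, 2641 and 2707 CPM) and type 2 cells (701, 1410, 3927 and 3913 CPM). Ccl22 had a change of -0.88 (SE 0.27, adjusted p = 0.874).

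The tumour line comparison, shYap minus WT over both diets in the same fit, called 0 of 4956 genes (0%) with edgeR; 121 had an unadjusted p under 0.05, and DESeq2 called 1. The median log2 change over all genes was -0.01. Leaving out LFD_WT, LFD_shYap, HFD_WT or HFD_shYap gave 10, 30, 18 and 64 calls in a model of line alone. Ccl2, a monocyte chemoattractant, had 25.1 CPM in HFD_shYap, 196 in HFD_WT, 72.4 in LFD_shYap and 205 in LFD_WT, for a log2 change of -2.34 (edgeR adjusted p = 0.189). Pf4, a platelet chemokine that macrophages also express, had 39.8, 164, 64.3 and 229 CPM (-1.94, edgeR adjusted p = 0.189). Both libraries labelled shYap lay below both WT ones for these genes. Pf4 had that order in type 1 cells too (39.4, 115, 69.9 and 245 CPM) and in macrophages (1210, 1250, 1136 and 2359 CPM). It lacked it in type 2 cells (51.3, 87.3, 119 and 234 CPM). Ccl2 lacked it in macrophages (460, 415, 567 and 1372 CPM) and in type 1 and type 2 cells. Clec10a, a lectin of type 2 cells, had 4.42, 40.3, 0 and 44.8 CPM (-3.41, edgeR adjusted p = 0.384). In the other direction Lars2, a mitochondrial tRNA ligase, had 258, 125, 265 and 108 CPM (1.17), and Dennd1b 69.3, 25.9, 80.4 and 13.2 CPM (1.82). Bgn, the matrix protein biglycan, had 50.1, 23.0, 153 and 29.0 CPM, but all its UMIs in HFD_shYap and in LFD_shYap lay in 1 cell of each. Yap1 itself had 2, 2, 0 and 1 UMIs in the mature dendritic cells, and none of the 8 listed YAP and TEAD genes, Yap1 among them, reached the level needed for testing.

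Between single libraries the most extreme ratios were often set by 1 cell, and none could be tested. HFD_WT exceeded LFD_WT most in Chil3, a chitinase-like protein, at least 28.4-fold with 156 UMIs against 0, but 98.7% of those UMIs lay in 1 cell. Its lowest ratios to LFD_WT were those of Ccl4 (0.122), Ms4a4c (0.194), Gpr183, an oxysterol receptor (0.233), and Irf7 (0.238). LFD_shYap exceeded LFD_WT most in Sparc, a matrix protein, with 54 UMIs against 3 and a ratio of 55.0 (exact 95% interval 17.8 to 275), and all 54 lay in 1 cell. Anxa1, with 31 UMIs against 9 and a ratio of 10.5, likewise had all its LFD_shYap UMIs in 1 cell. Lgals1, galectin 1, had 92.1% of its LFD_shYap UMIs in 1 cell. HFD_shYap fell furthest below HFD_WT in Cxcl1, S100a8 and S100a9, genes of neutrophils and their attraction, with 2, 4 and 9 UMIs against 104, 123 and 126, of which 77.9%, 59.3% and 69.0% lay in 1 HFD_WT cell for each gene. Differences spread over more cells were those of Tsc22d3, the glucocorticoid-induced leucine zipper, and Prkcd, a protein kinase C. Tsc22d3 was found in 28 of 61 cells of HFD_shYap against 9 of 74 of HFD_WT, with a CPM ratio of 5.12. Prkcd was found in 2 of 13 cells of LFD_shYap against 35 of 55 of LFD_WT, with 3 UMIs against 69 and a ratio of 0.133 (0.0267 to 0.405).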

How the data were processed

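The authors deposited raw UMI counts for 4 libraries, with no normalization. Cell Ranger is version 6.0.0 per the file headers and 4.0.0 per the submitters' processing notes, which also list STAR 2.5.1 and mm10. How barcodes had been selected for deposit is not stated there. Summed counts were tested with edgeR 4.0.16 in R 4.3.3 (quasi-likelihood, TMM, filterByExpr, Benjamini-Hochberg at 0.05), and DESeq2 1.42.0 was an alternative. The diet and line model left 1 residual degree of freedom, and the model of 12 sums with library as a block left 6. The SE given is the log2 change over the square root of F. On simulated counts with 200 changed genes the diet fit recovered 90% of 4-fold and 23% of 2-fold changes.

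CPM are counts per 1000000 summed UMIs of the group, with no length scaling, so levels of different genes are not comparable. No doublet caller was run; barcodes in the top 1% of UMIs or with another type's markers were left out in an alternative. Members, 18 gene lists and the naming rule were chosen with earlier results of these data known. That rule took gate and marker genes, up to 6 called genes a direction in each comparison (4 where none was called), 4 per list, and 4 per direction in each pair with at least 50 CPM and 30 UMIs. Genes given as exceptions to a group, and those named for being spread over many cells or lying in 1, were named after their values were seen. Replicates were not separable from libraries, so no p-value measures a spread between replicates of a combination. In the diet and line model they measure how far the effect of 1 factor differed between the levels of the other. In the model with library as a block they measure how differences between cell groups varied across these libraries. Clec7a, Mx1, Ccl19 and Aldoa were not analysed here.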

Additional observations from a re-analysis of the deposited data

Results flagged for a closer look

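In several measures the effect of 1 factor ran in opposite directions at the levels of the other. For each gene below the exact 95% counting intervals of the ratios lay on opposite sides of 1. For Cacnb3 and Fscn1, on which the gate selected, the ratios are descriptions only. These differences were not tested, each combination of diet and line being 1 library, and each rests on the 13 mature dendritic cells of LFD_shYap. The share of mature dendritic cells was 1.28 times as large in HFD_shYap as in HFD_WT, with an interval that includes 1 (0.895 to 1.82), and 0.299 times as large in LFD_shYap as in LFD_WT (0.150 to 0.554).

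Between tumour lines the CPM ratios of HFD_shYap over HFD_WT, followed by those of LFD_shYap over LFD_WT, were as follows. Ccl17 had 1.75 and 0.166, and Cacnb3, a gene of the gate, 1.30 and 0.571. The antigen presentation chaperone Tapbp had 1.24 and 0.533, the interferon-induced GTPase Gbp2 had 1.44 and 0.392, and Marcksl1 had 1.21 and 0.702. Ms4a4c had 4.66 and 0.296. Ifit3, an interferon-induced gene with 0 UMIs in LFD_shYap, had 4.44 (1.22 to 24.3, with 3 UMIs in HFD_WT) and at most 0.655. The reverse order held for Lgals1 (0.786 and 6.55), Spp1, osteopontin (0.635 and 3.37), and Cxcl1 (0.0296, with its 2 UMIs in HFD_shYap set to 3, and 5.21).

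Between diets the ratios of HFD_WT over LFD_WT, followed by those of HFD_shYap over LFD_shYap, also ran in opposite directions. Ccl17 had 0.268 and 2.83, Ccl5 0.703 and 1.11, Fscn1, a gene of the gate, 0.722 and 1.65, and Marcks 0.810 and 1.73. The interferon-induced Isg15 had 0.511 and 2.11, Ms4a4c 0.194 and 3.05, and Prkcd 0.713 and 7.08. The reverse order held for Anxa1 (2.19 and 0.177), Mt2, a metallothionein (2.19 and 0.237), Sparc (6.56 and 0.149), Lgals1 (3.35 and 0.401) and Cxcl1 (3.34 and 0.0190). Of the LFD_shYap UMIs, 1 cell held 100% for Anxa1, Sparc and Ms4a4c, 92.1% for Lgals1, 88.7% for Spp1, 82.8% for Mt2 and 75.9% for Cxcl1. A single cell of LFD_shYap also held 651 of its 1065 Ccl5 UMIs, and another 28 of its 58 Ccl17 UMIs.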

How the results depend on the processing

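The comparison with type 2 cells called 2456 genes and that with type 1 cells 2938, and 1831 to 2615 and 2201 to 3014 when 1 library was left out. Of the genes named as called, 74 and 77, at most 1 and 3 of those tested lost their call in any alternative run and none reversed. With cells thinned to 5000 UMIs there were 1869 calls against type 1, with 4044 genes tested; 6 and 4 of the named genes were not tested there, and 67 and 72 were called. The 5 diet calls became 2 with DESeq2, 2 with upper-quartile scaling, 15 without a filter, 12 with a filter of 10 UMIs, 14 with LFD_shYap read as high-fat from its treatment field, 0 with diet alone, 2 without possible doublets (1 of the 5 among them), 20 with a stricter gate, 0 with a looser gate, 11 with HFD_shYap cells with Xist only, 0 with those without it, and 10 to 98 when 1 library was left out. No sign of the 5 reversed. The 0 line calls became 1, 13, 2, 6, 11, 32 and 34 under DESeq2, no filter, 10 UMIs, the treatment field, no possible doublets, the stricter gate and Xist only, and 10 to 64 without 1 library (10 without LFD_WT, 64 without HFD_shYap). Without the deepest cell of each library, an alternative chosen after seeing the data, there were 25 diet and 27 line calls. The line effect on Bgn reversed to -6.46 under the stricter gate. The HFD_WT share was 0.843% under the looser gate. The cause of these changes was not tested. No paired analysis was possible because each combination had 1 library, so groups share fewer than 2 replicate numbers. Depth limits LFD_shYap most, where 3 counts stand for 24.1 CPM.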

Other observations

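Lipid and glycolytic genes divided within their lists in mature dendritic cells. Of 11 tested cholesterol and lipid genes 5 rose and 3 fell against both types, with medians of 0.19 against type 2 and 0.29 against type 1 cells. Over all tested genes 38.7% were called against type 2 and 46.3% against type 1 cells. Idi1, an enzyme of isoprenoid synthesis, averaged 150 ± 56.3 CPM in mature cells, 20.7 ± 8.05 in type 1 and 26.8 ± 7.81 in type 2 cells, for log2 changes of 2.81 (SE 0.24, edgeR adjusted p = 3.42e-08) and 2.47 (SE 0.28, adjusted p = 1.47e-06). Fasn, the fatty acid synthase, and Scd2, a desaturase, fell against both types.

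Of 10 hypoxia and glycolysis genes, 2 rose and 6 fell against type 2 cells (median -0.99), and 3 rose and 3 fell against type 1 cells (median -0.34). The shares called over all tested genes were 38.7% and 46.3%, as above. Pfkfb3, which makes the activator of phosphofructokinase, averaged 206 ± 34.1 CPM in mature cells, 23.2 ± 1.03 in type 1 and 16.4 ± 1.82 in type 2 cells, with log2 changes of 3.22 (SE 0.16, edgeR adjusted p = 3.00e-11) and 3.69 (SE 0.20, adjusted p = 2.02e-10). Ldha, lactate dehydrogenase A, averaged 166 ± 94.5 CPM in mature cells against 553 ± 42.9 in type 1 and 471 ± 42.2 CPM in type 2 cells, and fell by 1.57 and 1.35.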
